A study of Mus musculus with 42 samples.

Results

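Bone marrow-derived mesenchymal stem cells (MSCs) of C57BL/6 mice were exposed to tributyltin (TBT), AGN194204, rosiglitazone (ROSI) or the solvent dimethyl sulfoxide (DMSO), and 7 genes that carry fatty acids into the cell are described here. They were taken by symbol out of the 45317 genes of the deposited count table: Lpl, Cd36, Slc27a1, Slc27a4, Fabp4, Fabp5 and Fabp3. The doses were 50 nM TBT, 100 nM AGN194204, 100 nM rosiglitazone and 0.1% DMSO, each for 48 h, and RNA was sequenced in 6 libraries per treatment. Chromatin immunoprecipitation (ChIP-seq) of the histone marks H3K4me3 and H3K27me3 was done in 4 TBT and 4 DMSO libraries per mark, with 1 input library per treatment. The series describes the cells as undifferentiated; they came from a vendor at passage 6 and were used at passage 9 to 10. The doses differ between TBT and the other agents, so differences between compounds hold for these doses. The labels do not say whether libraries of a group are separate cultures, and the p-values measure the spread between libraries, which may be technical.

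Cells take up fatty acids in steps. Lipoprotein lipase, encoded by Lpl, is secreted and frees fatty acids from the triglycerides of circulating lipoproteins. The surface protein CD36 and the fatty acid transport proteins FATP1 (Slc27a1) and FATP4 (Slc27a4) move them across the membrane, and FATP proteins also couple them to coenzyme A. Small fatty acid binding proteins then carry them in the cytosol: FABP4 is typical of fat cells and macrophages, FABP5 is found in many cell types including skin, and FABP3 is the form of heart and muscle. Lpl, Cd36 and Fabp4 are known target genes of peroxisome proliferator-activated receptor gamma (PPARγ, gene Pparg) in fat cells, where it binds DNA as a dimer with a retinoid X receptor (RXR). Rosiglitazone is an agonist of PPARγ, AGN194204 is an agonist of RXR, and TBT, an organotin, is known to activate both receptors.

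The promoter table of RefSeq (build GRCm38.p6) holds 4 of the 7 genes: Cd36, Slc27a1, Slc27a4 and Fabp3. Each window runs over 250 bases before to 50 bases after a transcription start, and 3 windows are shown because their genes differ in RNA response and in H3K4me3, as described further on. Cd36 lies on the minus strand, with its window at chr5:17835847-17836146. That window is at a start inside the gene, which spans chr5:17781690-17888959. It is not at the higher-coordinate end, which was taken as the start of Cd36 for the histone marks. No window for that end was given. The windows of Slc27a4 (chr2:29802384-29802683) and Fabp3 (chr4:130308488-130308787) lie on the plus strand. Sequences run 5′ to 3′ on the gene's strand, and capitals mark matches, on either strand, to the motifs named after them.
Cd36: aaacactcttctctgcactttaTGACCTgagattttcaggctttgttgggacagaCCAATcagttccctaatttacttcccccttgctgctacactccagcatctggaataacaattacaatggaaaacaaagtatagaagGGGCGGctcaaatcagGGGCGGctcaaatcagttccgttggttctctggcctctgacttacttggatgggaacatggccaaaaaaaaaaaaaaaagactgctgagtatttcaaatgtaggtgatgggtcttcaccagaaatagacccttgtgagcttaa
Slc27a4: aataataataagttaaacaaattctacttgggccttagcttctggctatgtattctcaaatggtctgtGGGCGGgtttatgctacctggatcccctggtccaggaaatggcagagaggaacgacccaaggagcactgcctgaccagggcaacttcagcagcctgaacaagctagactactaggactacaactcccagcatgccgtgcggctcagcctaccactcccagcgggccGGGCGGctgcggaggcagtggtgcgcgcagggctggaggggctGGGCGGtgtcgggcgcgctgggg
Fabp3: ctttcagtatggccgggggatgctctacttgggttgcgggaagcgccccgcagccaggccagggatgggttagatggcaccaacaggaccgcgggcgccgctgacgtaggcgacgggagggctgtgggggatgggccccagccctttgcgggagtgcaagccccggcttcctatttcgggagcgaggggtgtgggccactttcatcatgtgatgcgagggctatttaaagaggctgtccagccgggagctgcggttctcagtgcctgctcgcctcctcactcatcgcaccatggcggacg
The motifs searched on both strands were the nuclear receptor half-site AGGTCA, a direct repeat of that half-site with any 1 base between, and a looser repeat built of AGGNCA in the same way. The letters TATAAA, known as the core of the TATA box, were also searched. So were CCAAT, bound by factor NF-Y, and GGGCGG, the GC box bound by factors of the Sp family. The last motif was CACGTG, the E-box bound by many helix-loop-helix factors. The repeat holds the half-site, and the other motifs were counted on their own. The Cd36 window had 1 half-site, on the opposite strand at position -228 from that inner start, 1 CCAAT at -195 and GGGCGG at -109 and -93. The Slc27a4 window had GGGCGG at -182, -16 and 28, and the Fabp3 window had no match. Of the 3 windows of Slc27a1 in the table, the one at chr8:71570344-71570643 held GGGCGG at -159, -48 and -17, CCAAT at -128 and CACGTG at -202. The half-site occurred in 16.3% of the 32851 promoter windows, CCAAT in 37.4%, GGGCGG in 35.7% and CACGTG in 7.15%. The direct repeat occurred in 0.0396% of windows and its looser form in 0.381%, and neither was found in a window of these genes. TATAAA occurred in 13.6% of windows and in none of these. The Cd36 window was 43.0% G or C with 3 CpG dinucleotides, the Slc27a4 window 58.7% with 14, and the Fabp3 window 65.0% with 22, against medians of 52.7% and 7 over all windows. The 3 Slc27a1 windows had 56.3% to 65.7% G or C and 10 to 16 CpG dinucleotides.

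The RNA libraries held 3801758 to 5347365 counts on genes, and spike-in RNA (ERCC) came to 0.326 to 0.502 counts per 100 gene counts. Levels are counts per 1000000 (CPM), scaled by the TMM method, and each difference is a log2 fold change of edgeR's quasi-likelihood fit over all 24 libraries with its standard error (SE), called where the Benjamini-Hochberg adjusted p over the 12529 genes tested was under 0.05. Of 7 genes, 5 passed the filter on low counts; Cd36 and Fabp3 did not and are given from a fit of the 26314 genes with any count. With library scaling by the spike-ins, the genes called for TBT against DMSO were 1802 higher and 293 lower, against 1878 higher and 1745 lower with TMM. For AGN194204 against DMSO they were 908 higher and 300 lower with spike-ins, against 1600 higher and 1414 lower with TMM. Spike-in scaling moved the median log2 difference of all genes by over 0.1 in 2 comparisons, to 0.13 for TBT against rosiglitazone and to 0.11 for the sum contrast described further on. Of the 11 marrow stromal markers, 10 passed the filter, and their summed level was 1872 to 2037 CPM in TBT, 1890 to 2083 in AGN194204, 1842 to 1922 in rosiglitazone and 1941 to 1987 in DMSO libraries. Abundant genes carry most of that sum: Itgb1, Cd44, Cxcl12 and Pdgfrb had means of 602, 399, 358 and 290 CPM in DMSO. Eng and Nt5e had 6.05 and 3.14 CPM there, and Lepr, which failed the filter, had 8 counts. Single stromal markers changed: TBT raised 2 and lowered 2 of the 10, AGN194204 raised 4 and lowered 2, and rosiglitazone lowered 1. Thy1 fell by 0.58 under TBT and by 0.81 under AGN194204 on the log2 scale, and Cd44 fell by 0.41 under both. Ly6a rose by 0.54 and 0.57 and Pdgfrb by 0.35 and 0.38 under the same agents, and these 8 calls also passed with spike-in scaling, while the other 3 did not. Macrophage and blood markers summed to 57.5 to 68.8, 58.0 to 67.6, 46.5 to 55.4 and 54.5 to 61.7 CPM in the same treatment order. Of these 11 markers, 3 passed the filter, Cd14, Csf1r and Cd68, and none was called against DMSO. Cd14 had group means of 49.7, 49.5, 41.1 and 44.8 CPM in that order. Csf1r had 6.49, 7.16, 5.16 and 5.99, and Cd68 had 4.50, 4.95, 4.50 and 5.40. The genes Adgre1 and Tyrobp had 0 counts in each library. Endothelial markers summed to 2.02 to 5.23 CPM in TBT, 2.28 to 3.83 in AGN194204, 1.51 to 3.73 in rosiglitazone and 2.90 to 8.94 in DMSO libraries, and 1 of 7 passed the filter. That gene, Pecam1, fell by 1.02 under AGN194204 (adjusted p = 0.0043). Muscle markers summed to 3.02 to 4.98, 2.39 to 5.69, 3.62 to 8.09 and 5.18 to 8.25 CPM in the same order, and 1 of 7 passed the filter. That gene, Tnnt2, fell by 1.80 under TBT and by 1.52 under AGN194204 (adjusted p = 0.00035 and 0.0019). The part of these markers in the levels of the uptake genes was not tested.

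The genes for the first and last step, Lpl and Fabp4, were higher than in DMSO under each of the 3 agents, with the largest rise under TBT, and Cd36 had a few counts per library under the agents and none in DMSO. Both transporters, Slc27a1 and Slc27a4, rose by less, under TBT and AGN194204, and their rosiglitazone libraries did not differ from DMSO past the threshold. Fabp5 and Fabp3 passed in no comparison. TBT raised 4 of the 5 tested genes, where 15% of genes tested were called higher, and AGN194204 raised 4, where 12.8% were. Rosiglitazone raised 2, where 0.615% were called higher, and no agent lowered one. All libraries of the agent lay above all DMSO libraries for 4, 4 and 2 of the 5 genes under TBT, AGN194204 and rosiglitazone, as held for 6.73%, 6.90% and 0.838% of all genes tested. In bulk RNA, more cells of a type and more RNA per cell cannot be told apart. The plot of CPM by library shows the 7 genes, each on its own axis.

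**Figure D1:**
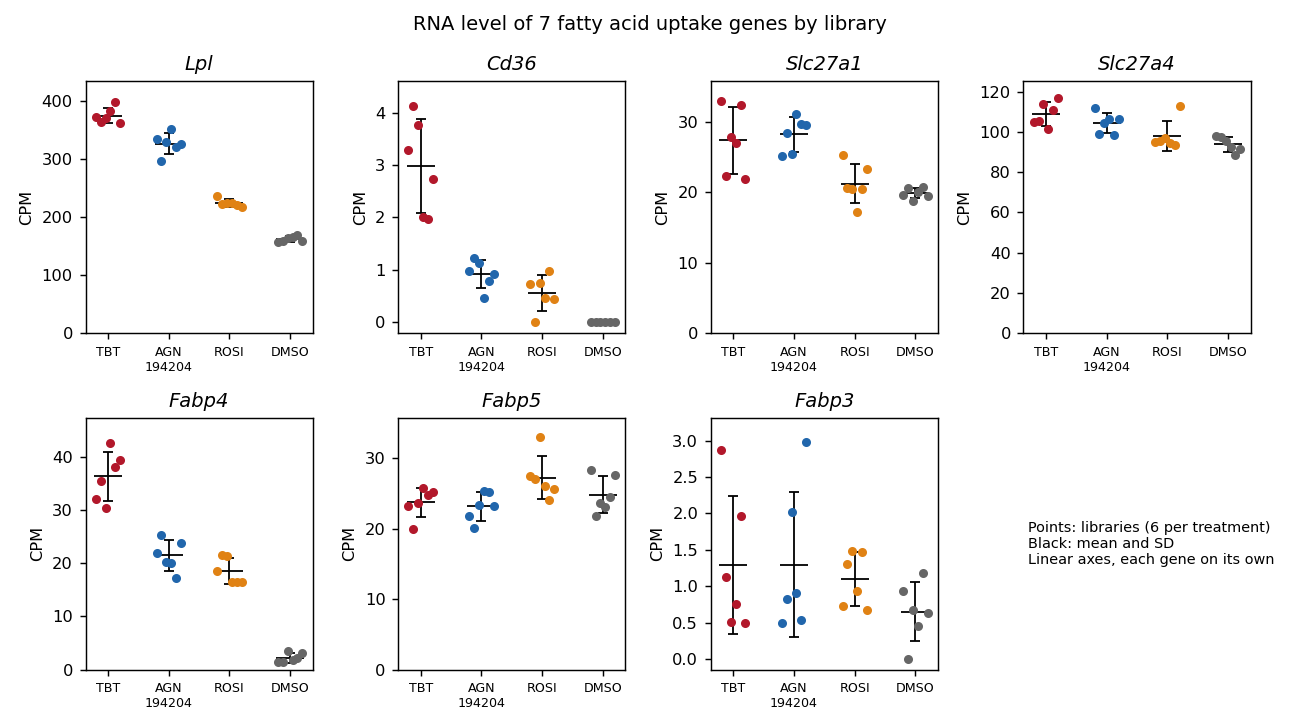
RNA level of the 7 genes in CPM (linear axes) for TBT, AGN194204, rosiglitazone (ROSI) and DMSO; points are the 6 libraries of each treatment, black bars the mean and SD. The means of Lpl and Fabp4 step down from left to right, from 374 and 36.3 CPM under TBT to 162 and 2.24 CPM under DMSO. For Fabp4 the AGN194204 and rosiglitazone points overlap. Cd36 has points at 0 in each DMSO library, and Fabp5 overlaps across the treatments.

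Lpl, in the gene at chr8:68880555-68906932 (GRCm38.p6), had 362 to 397 CPM in TBT libraries (median 370.4), 296 to 352 in AGN194204 libraries (median 327), 217 to 235 in rosiglitazone libraries (median 223) and 157 to 169 in DMSO libraries (median 161). The 4 groups did not overlap, so that each TBT library was above each AGN194204 library, each of those above each rosiglitazone library, and each of those above each DMSO library. The log2 fold change against DMSO was 1.21 ± 0.04 for TBT, which is 2.31-fold (SE, n = 6 libraries per group; adjusted p = 4.1e-26). It was 1.01 ± 0.04 for AGN194204 (adjusted p = 3.2e-23) and 0.47 ± 0.04 for rosiglitazone (adjusted p = 2.4e-11). The steps between the compounds passed too. TBT was above AGN194204 by 0.20 ± 0.03 (adjusted p = 0.00086) and above rosiglitazone by 0.74 ± 0.04 (adjusted p = 4.3e-19). AGN194204 was above rosiglitazone by 0.54 ± 0.04 (adjusted p = 1.1e-14). With spike-in scaling the step of TBT over AGN194204 did not pass (0.27, adjusted p = 0.16), while each of the other steps did.

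Fabp4 (chr3:10204342-10208616) had the largest fold change of the tested genes of the group. It had 30.4 to 42.6 CPM in TBT libraries (median 36.8), 17.2 to 25.4 in AGN194204 libraries (median 21.1), 16.4 to 21.6 in rosiglitazone libraries (median 17.6) and 1.37 to 3.57 in DMSO libraries (median 1.96). The DMSO libraries rested on 6 to 16 counts each, the TBT libraries on 121 to 189. Each TBT library lay above each library of the other groups, the AGN194204 and rosiglitazone libraries overlapped, and both stood above DMSO. Against DMSO the log2 fold change was 4.00 ± 0.16 for TBT, 16.0-fold (adjusted p = 1.1e-21), 3.25 ± 0.18 for AGN194204 (adjusted p = 1.4e-17) and 3.03 ± 0.18 for rosiglitazone (adjusted p = 5.4e-15). TBT exceeded AGN194204 by 0.75 ± 0.11 (adjusted p = 4.6e-05) and rosiglitazone by 0.97 ± 0.11 (adjusted p = 1.3e-08). AGN194204 and rosiglitazone differed by 0.22 ± 0.12, with a 95% interval of -0.02 to 0.45 (adjusted p = 0.19).

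Cd36 (chr5:17781690-17888959) was at the limit of what these libraries can count. The 6 TBT libraries had 16, 22, 15, 8, 8 and 11 counts, the AGN194204 libraries 4, 6, 5, 2, 3 and 4, the rosiglitazone libraries 3, 0, 3, 2, 4 and 2, and the 6 DMSO libraries none. Each TBT library was above each AGN194204 and each rosiglitazone library, and 1 rosiglitazone library was at 0 as the DMSO libraries were. For DMSO a limit of 3 counts over the group was set. The level pooled over 6 libraries was 27.7 times that limit under TBT (80 counts), 8.40 times under AGN194204 (24 counts) and 4.96 times under rosiglitazone (14 counts). The fit without the filter gave adjusted p = 9.9e-13 for TBT, where 6.83% of genes were called higher, 1.7e-05 for AGN194204 (5.75%) and 0.015 for rosiglitazone (0.369%). Pooled over libraries, TBT had 3.30 times the level of AGN194204 (95% interval of the counts 2.07 to 5.44) and 5.58 times that of rosiglitazone (3.14 to 10.7). These 2 differences had adjusted p = 0.035 and 2.8e-05, where 0.255% and 7.23% of genes were called higher. AGN194204 had 1.69 times the level of rosiglitazone (0.841 to 3.54; adjusted p = 0.51). With spike-in scaling the calls of rosiglitazone against DMSO (adjusted p = 0.058) and of TBT against AGN194204 (adjusted p = 0.069) did not pass. The intervals cover counting error only, and the multiples of the DMSO limit leave out the counting error of the treated libraries.

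Slc27a1 (chr8:71568728-71587307) had 21.9 to 33.0 CPM in TBT libraries (median 27.4), 25.2 to 31.2 in AGN194204 libraries (median 29.0), 17.2 to 25.3 in rosiglitazone libraries (median 20.5) and 18.7 to 20.7 in DMSO libraries (median 19.9). Each TBT and each AGN194204 library was above each DMSO library, and rosiglitazone libraries lay on both sides of them. The log2 fold change was 0.46 ± 0.10 for TBT (adjusted p = 0.00058) and 0.51 ± 0.10 for AGN194204 (adjusted p = 0.00022). For rosiglitazone it was 0.09 ± 0.11, with a 95% interval of -0.11 to 0.30 (adjusted p = 0.79). TBT and AGN194204 differed by -0.04 (95% interval -0.24 to 0.15; adjusted p = 0.94), and both were above rosiglitazone, by 0.37 ± 0.10 (adjusted p = 0.0056) and 0.41 ± 0.10 (adjusted p = 0.0023). The TBT libraries spread most, with a coefficient of variation of 17.3%, against 3.74% in DMSO.

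Slc27a4 (chr2:29802634-29817522) moved least of the 4 genes called. It had 101 to 117 CPM in TBT libraries (median 108), 98.4 to 112 in AGN194204 libraries (median 105), 93.5 to 113 in rosiglitazone libraries (median 95.2) and 88.5 to 98.0 in DMSO libraries (median 93.9). The TBT and AGN194204 libraries were above each DMSO library, and the rosiglitazone group overlapped with each of the others. The log2 fold change was 0.21 ± 0.05 for TBT (adjusted p = 0.0010) and 0.15 ± 0.05 for AGN194204 (adjusted p = 0.020), a call that did not pass with spike-in scaling (adjusted p = 0.24). Rosiglitazone gave 0.06 ± 0.05 (95% interval -0.03 to 0.16; adjusted p = 0.68). TBT was above rosiglitazone by 0.15 ± 0.05 (adjusted p = 0.021). The other pairs of compounds did not pass: TBT less AGN194204 was 0.06 (95% interval -0.04 to 0.16) and AGN194204 less rosiglitazone 0.09 (-0.01 to 0.19).

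Fabp5 (chr3:10012585-10016610) had 19.9 to 25.7 CPM in TBT libraries (median 24.2), 20.1 to 25.3 in AGN194204 libraries (median 23.3), 24.1 to 33.0 in rosiglitazone libraries (median 26.6) and 21.8 to 28.3 in DMSO libraries (median 24.1). The groups overlapped in each pair. Against DMSO the log2 difference was -0.07 (95% interval -0.25 to 0.11) for TBT, -0.10 (-0.28 to 0.08) for AGN194204 and 0.14 (-0.04 to 0.31) for rosiglitazone, none called. The widest gap was between AGN194204 and rosiglitazone, -0.24 ± 0.09, at adjusted p = 0.056. Fabp3 (chr4:130308738-130315463) had 2 to 14 counts in TBT, 2 to 13 in AGN194204, 3 to 6 in rosiglitazone and 0 to 5 in DMSO libraries. Its groups overlapped, and a difference could not be seen at this depth: the log2 interval for TBT against DMSO ran from 0.01 to 2.06, with adjusted p = 0.22.

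Set against each other, the compounds divided the genes in more than one way. Between TBT and AGN194204, 2 of the 5 tested genes were called, Lpl and Fabp4, both higher under TBT, where 0.407% of genes tested were called higher. Between TBT and rosiglitazone 4 of 5 were higher under TBT, where 15.2% were. Between AGN194204 and rosiglitazone 2 of 5, Lpl and Slc27a1, were higher under AGN194204, where 13.5% were. The groups did not overlap for 2 of 5 genes between TBT and AGN194204, 2 between TBT and rosiglitazone and 1 between AGN194204 and rosiglitazone, as held for 0.423%, 6.78% and 6.59% of all genes in that direction. The comparisons share libraries, so these counts are not independent of each other.

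**Figure D2:**
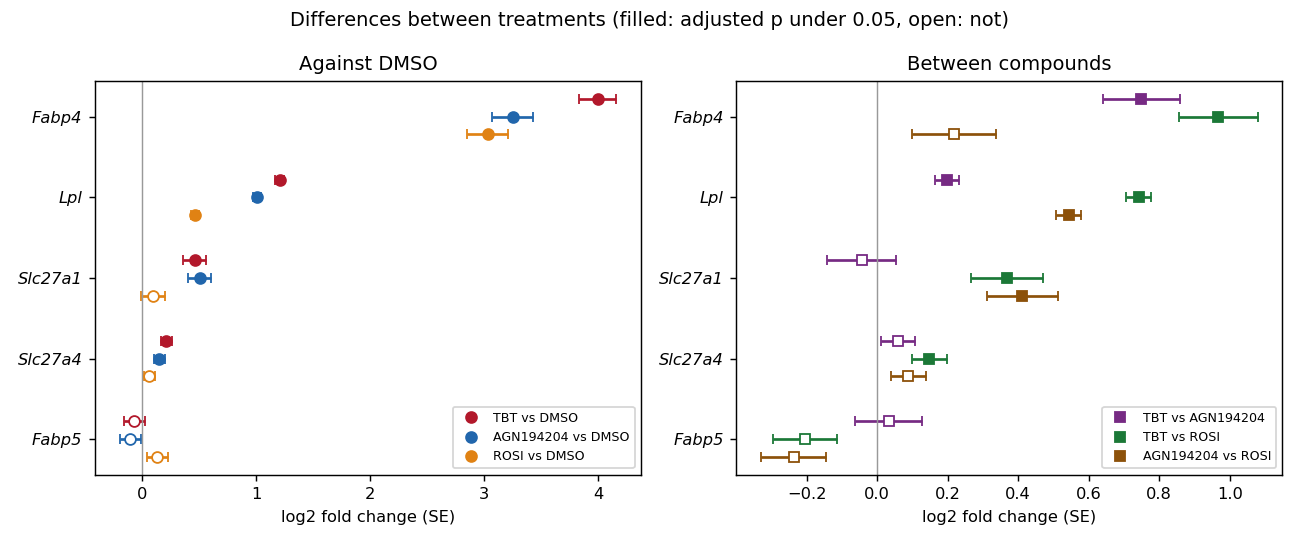
Log2 fold changes with SE for the 5 genes that passed the filter, against DMSO (left) and between compounds (right); filled symbols have an adjusted p under 0.05. Fabp4 and Lpl are filled for the 3 agents against DMSO, while the steps of AGN194204 over rosiglitazone are filled for Lpl (0.54) and Slc27a1 (0.41).

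TBT is known to act on both receptors, and the response to it was therefore set beside the sum of the responses to the RXR agonist and the PPARγ agonist on the log2 scale. For Fabp4 the TBT response was 2.28 ± 0.22 below that sum, a contrast of -2.28 (adjusted p = 9.8e-09). For Lpl the contrast was -0.27 ± 0.05 (adjusted p = 0.0057), and it did not pass with spike-in scaling (-0.15, adjusted p = 0.66). These 2 of 5 genes stand where 0.192% of genes tested were called lower. Slc27a1 gave -0.14 (95% interval -0.42 to 0.15), Slc27a4 gave 0.00 (-0.14 to 0.13) and Fabp5 gave -0.10 (-0.36 to 0.15). Cd36 gave adjusted p = 0.46 in the fit without the filter. A sum on the log2 scale multiplies the folds. In the order TBT, AGN194204, rosiglitazone and DMSO, Fabp4 had means of 36.3, 21.5, 18.5 and 2.24 CPM. Lpl had 374, 326, 224 and 162 CPM in that order. A sum on the CPM scale was not tested, so the contrast holds for the log2 scale only. No library received AGN194204 and rosiglitazone together.

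The receptors differed among the treatments. Pparg had 60.5 ± 4.47 CPM under TBT, 68.6 ± 3.61 under AGN194204, 36.6 ± 3.49 under rosiglitazone and 44.3 ± 2.02 under DMSO (SD, n = 6). It rose by 0.46 and 0.63 on the log2 scale under TBT and AGN194204 (adjusted p = 4.4e-07 and 3.5e-10) and fell by 0.27 under rosiglitazone (adjusted p = 0.036), a call that did not pass with spike-in scaling (adjusted p = 0.53). Nr1h3, which encodes the liver X receptor alpha, another partner of RXR, had 16.5 ± 2.09 CPM under TBT and 16.6 ± 2.36 under AGN194204, against 6.56 ± 2.65 under DMSO. These were rises of 1.31 and 1.33 on the log2 scale (adjusted p = 9.8e-08 and 1.1e-07), and rosiglitazone gave 0.32 (adjusted p = 0.54). Rxra, which encodes an RXR, was within 194 to 199 CPM in the 4 group means and was not called under an agent.

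Other genes of the pathway came from 4 lists of 50 genes in all, of which 30 passed the filter. TBT raised 12 and lowered 6 of them, AGN194204 raised 9 and lowered 3, and rosiglitazone raised 2 and lowered none. Of all genes tested, 13.9%, 11.3% and 0.423% were called lower under the 3 agents in that order, beside the shares called higher given above. With spike-in scaling these counts were 9 and 4, 5 and 3, and 1 and none. The plot of the pathway genes shows each of the 30.

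**Figure D3:**
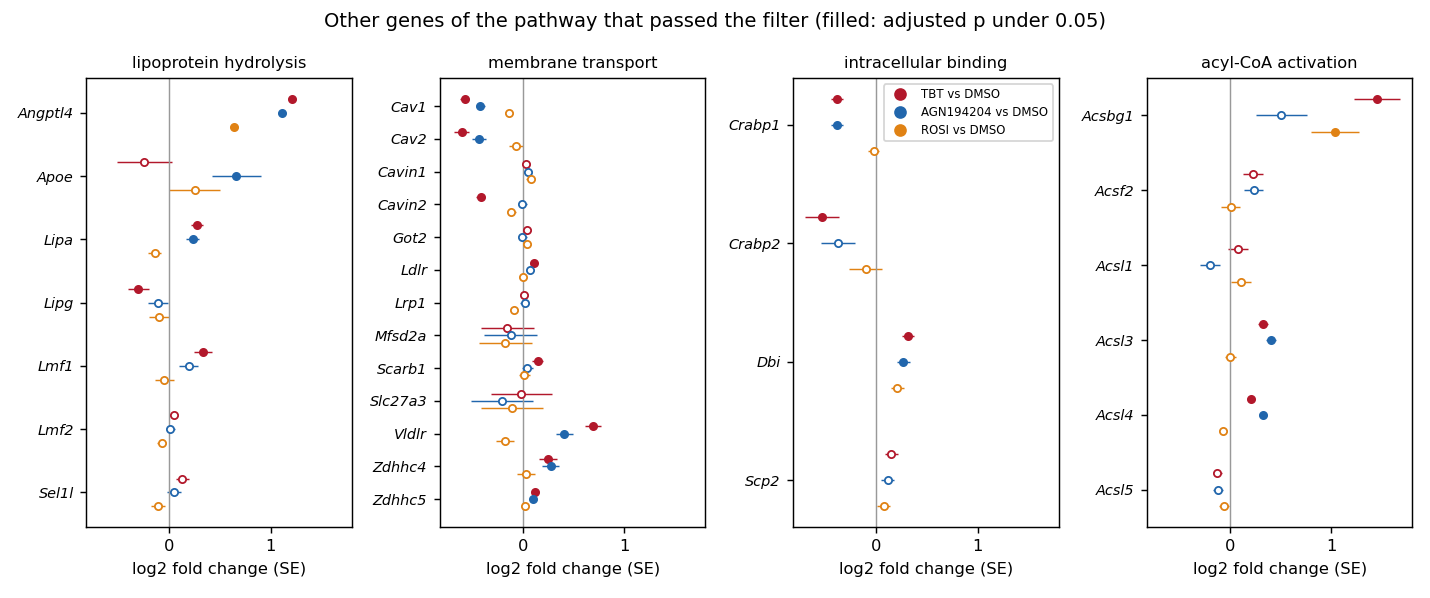
Log2 fold changes with SE against DMSO for the 30 pathway genes that passed the filter, by list; filled symbols have an adjusted p under 0.05. Angptl4 is filled under the 3 agents, Cav1 and Cav2 lie left of 0 under TBT and AGN194204, and Acsbg1 is filled under TBT (1.45) and rosiglitazone (1.04).

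Among 7 tested genes of lipoprotein hydrolysis and its control, TBT raised 3 and lowered 1, AGN194204 raised 3 and rosiglitazone raised 1. With spike-in scaling the genes raised were 3, 1 and 1, and none was lowered. The median log2 fold was 0.13 under TBT, 0.19 under AGN194204 and -0.08 under rosiglitazone, beside medians within 0.01 of 0 over all genes tested. Angptl4, which encodes a secreted inhibitor of lipoprotein lipase, had 329 ± 15.8 CPM under TBT, 305 ± 11.8 under AGN194204, 221 ± 8.43 under rosiglitazone and 142 ± 6.84 under DMSO (SD, n = 6). It rose with Lpl under the 3 agents, by 1.21, 1.11 and 0.64 on the log2 scale (adjusted p = 2.8e-25, 1.2e-23 and 1.7e-14). Lmf1, a factor needed for the maturation of the lipase, rose by 0.33 under TBT (adjusted p = 0.0050). Lipa, the lysosomal acid lipase, rose by 0.28 under TBT and 0.23 under AGN194204, the second of which did not pass with spike-in scaling (adjusted p = 0.098). Apoe, an apolipoprotein that binds lipoprotein receptors, rose under AGN194204 by 0.66 ± 0.24 (adjusted p = 0.041; 0.098 with spike-in scaling). Lipg, the endothelial lipase, fell by 0.30 under TBT (adjusted p = 0.021; 0.25 with spike-in scaling). Gpihbp1, which holds the lipase on capillary endothelium, had 0 counts in each library, as did Apoc1, Apoc2, Apoc3 and Apoa5.

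Among 13 tested genes of membrane transport and lipoprotein receptors, TBT raised 5 and lowered 3, AGN194204 raised 3 and lowered 2, and rosiglitazone changed none at the adjusted threshold. With spike-in scaling TBT raised 2 and lowered 3, and AGN194204 raised 1 and lowered 2. Their median log2 fold was 0.03, 0.02 and -0.07. Vldlr, the very low density lipoprotein receptor, rose by 0.69 ± 0.08 under TBT (adjusted p = 1.5e-08) and 0.41 ± 0.08 under AGN194204 (adjusted p = 0.00024). Of 4 genes of caveolae, small pits of the cell membrane, TBT lowered 3 and AGN194204 lowered 2. Cav1 fell by 0.57 under TBT and by 0.42 under AGN194204 (adjusted p = 9.9e-14 and 4.1e-10), and Cav2 fell by 0.60 and by 0.43 (adjusted p = 2.6e-08 and 1.2e-05). Cavin2, found in the table under its older symbol Sdpr, had 153 ± 6.59 CPM under TBT, 204 ± 16.1 under AGN194204, 189 ± 5.33 under rosiglitazone and 204 ± 8.83 under DMSO, and fell by 0.41 under TBT (adjusted p = 1.4e-09). It was lower under TBT than under AGN194204 as well (log2 -0.41, adjusted p = 2.4e-07), and AGN194204 against DMSO gave 0.00 (95% interval -0.09 to 0.08). Cavin1, found under its older symbol Ptrf, gave 0.03 under TBT and 0.06 under AGN194204 and was not called (adjusted p = 0.61 and 0.36); it is named here after its values were seen. Zdhhc4, an enzyme that adds palmitate to proteins, rose by 0.25 under TBT (adjusted p = 0.027; 0.049 with spike-in scaling) and by 0.27 under AGN194204 (adjusted p = 0.018; 0.15 with spike-in scaling). The other fatty acid transport proteins Slc27a2, Slc27a5 and Slc27a6 had 0 to 2 counts per treatment. Slc27a3 had 60 counts under TBT, 52 under AGN194204, 55 under rosiglitazone and 63 under DMSO, and was not called (log2 -0.01, -0.20 and -0.10 against DMSO).

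Among 4 tested genes of intracellular binding, TBT raised 1 and lowered 2, AGN194204 raised 1 and lowered 1, and rosiglitazone changed none at that threshold. The median log2 fold was -0.12, -0.13 and 0.02. Dbi, the acyl-CoA binding protein, rose by 0.32 under TBT and 0.27 under AGN194204 (adjusted p = 0.00012 and 0.0011). Crabp1, a retinoic acid binding protein of the same family as the FABPs, fell by 0.38 under TBT and by 0.38 under AGN194204 (adjusted p = 2.4e-06 and 2.9e-06). Crabp2 fell by 0.53 under TBT (adjusted p = 0.015; 0.057 with spike-in scaling). Fabp1, Fabp2, Fabp6, Fabp9 and Fabp12 had 0 counts in each library. Among 6 tested genes for coupling to coenzyme A, TBT raised 3, AGN194204 raised 2 and rosiglitazone raised 1, with median log2 folds of 0.22, 0.29 and 0.01. Acsl3 and Acsl4 rose under TBT by 0.33 and 0.21 and under AGN194204 by 0.40 and 0.33. Acsbg1 rose by 1.45 ± 0.23 under TBT (adjusted p = 4.6e-06) and 1.04 ± 0.24 under rosiglitazone (adjusted p = 0.016; 0.17 with spike-in scaling), and AGN194204 gave 0.51 (adjusted p = 0.15).

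Of 10 markers of mature fat cells, 2 passed the filter, Lipe and Pnpla2, which encode lipases of the lipid droplet, and these make up most of the summed level. The sum was 157 to 189 CPM in TBT, 156 to 184 in AGN194204, 114 to 135 in rosiglitazone and 101 to 119 in DMSO libraries. Both genes rose under TBT (log2 0.85 and 0.61) and under AGN194204 (0.81 and 0.55), and Pnpla2 rose under rosiglitazone by 0.22 (adjusted p = 0.020; 0.76 with spike-in scaling). Lipe gave -0.02 under rosiglitazone (adjusted p = 0.97), where Lpl and Fabp4 rose. Of the markers below the filter, Cidec, a lipid droplet protein, had 48, 26, 13 and 2 counts under TBT, AGN194204, rosiglitazone and DMSO, summed over 6 libraries. Plin1 had 14, 9, 1 and 1. Adipoq had none in the TBT, AGN194204 or rosiglitazone libraries and 1 in DMSO, and Lep had none in any library. Cidea, Retn and Cfd had 0 to 5 counts per treatment. The part of fat cell formation in the levels of the uptake genes was not tested.

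For each of the 5 tested genes, the 3 genes with the highest Pearson correlation of log2 CPM over the 24 libraries were found. They came from 11215 candidates that passed the filter, averaged a log2 CPM of 1 or more and had no predicted or clone name. The 24 points share their treatments, so most of each value is the difference between groups, and the value with group means removed is given beside it. Lpl was most like Pdk4 (r = 0.99, 0.60 with group means removed), Plin4 (0.99, 0.22) and Tdrd7 (0.98, 0.18). Fabp4 was most like Angptl4 (0.94, 0.28), Prl2c3 (0.94, 0.33) and Ccl9 (0.92, 0.30). Slc27a1 was most like Dctn1 (0.86, 0.48), Col4a5 (0.85, 0.47) and Cxcl10 (0.85, 0.53). Slc27a4 was most like Retsat (0.81, 0.50), Chpf2 (0.81, 0.48) and Fkbp10 (0.79, 0.43). Fabp5 was most like Tpst2 (0.84), Samd1 (0.79) and Arf6 (0.79), and there the values with group means removed were 0.79, 0.71 and 0.68.

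H3K4me3, a mark of active promoters, covered the start of 5 of the 7 genes in each of the 8 libraries, and none of the 8 had an island over Fabp4 or Cd36. Islands are stretches in which the authors' caller found more ChIP than input reads. They were searched in the gene and the 5 kb before its start, or on both sides of Lpl, Fabp4 and Fabp5, whose strand the promoter table does not give and whose start was taken as the lower-coordinate end. Reads in islands came to 5954363 to 10311922 in TBT and 7426243 to 10633063 in DMSO libraries. Over the Lpl start the authors' fold of ChIP over input was 6.51 to 11.3 in TBT and 4.86 to 6.93 in DMSO libraries. Over Fabp5 it was 7.13 to 12.7 in TBT and 7.02 to 12.1 in DMSO libraries, and over Fabp3 4.31 to 7.55 and 3.22 to 6.54. Over Slc27a4 it was 5.373 to 7.685 in TBT and 4.349 to 6.497 in DMSO libraries. The islands at the Slc27a1 start had 1.749 to 9.063 and 1.17 to 5.125. Each fold is over the input of its own treatment, so the folds do not compare H3K4me3 between TBT and DMSO. A difference in these folds was not tested. Fabp3 thus had the mark in each library with at most 14 RNA counts, while Fabp4 and Cd36 rose in RNA under TBT with no island of it.

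Island reads were summed over regions that the 8 libraries share, and of 12813 such regions 0.164% were called between TBT and DMSO. None of the 7 regions at these genes was among the 21 called by edgeR, while 1048 of all regions had an unadjusted p under 0.05. The nearest was the region over the Lpl start (chr8:68878000-68886199). In the TBT libraries it had 111, 113, 117 and 107 reads per 1000000 reads in shared regions, scaled by TMM. The DMSO libraries had 92.4, 99.8, 91.5 and 92.4. Each TBT library was above each DMSO library, as held for 2.50% of regions in that direction. The means were 112 ± 3.99 in TBT and 94.0 ± 3.86 in DMSO (SD, n = 4), a log2 fold of 0.25 ± 0.05 (95% interval 0.15 to 0.35), with an adjusted p of 0.105 in edgeR. These sums cover islands called separately in each library, so they move with the length called as well as with the density of reads. At Lpl that length was 6600, 5600, 5600 and 4400 bp in the TBT libraries and 5800, 3800, 5200 and 7600 bp in the DMSO libraries. Per called kb the mean was 20.5 in TBT and 18 in DMSO, and a fit with the called length as an offset gave a log2 difference of 0.19.

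**Figure D4:**
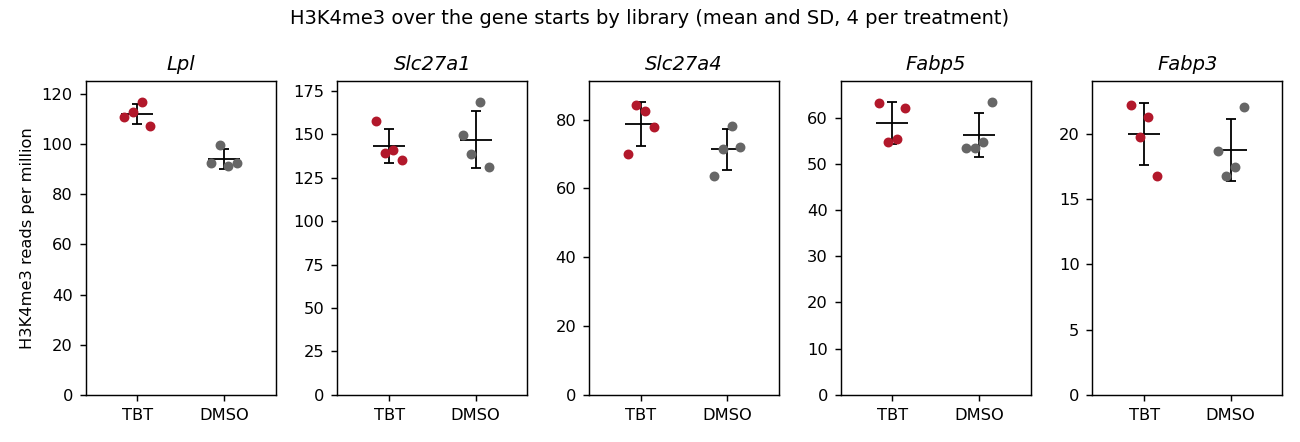
H3K4me3 reads per 1000000 reads in shared regions, scaled by TMM, over 5 gene starts for the 4 TBT and the 4 DMSO libraries. Bars are mean and SD, and axes are linear and begin at 0. For Lpl the 4 TBT libraries (107 to 117) stand above the 4 DMSO libraries (91.5 to 99.8), and for the other genes the groups overlap.

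The other starts gave smaller differences in the island sums, and their groups overlapped. Slc27a4 had 78.6 ± 6.39 reads per 1000000 in TBT and 71.3 ± 5.96 in DMSO (log2 0.14, 95% interval -0.02 to 0.29; adjusted p = 0.69 in edgeR). Fabp5 had 58.9 ± 4.47 in TBT and 56.3 ± 4.85 in DMSO (0.07, -0.09 to 0.23). Fabp3 had 16.8 to 22.2 in TBT and 16.8 to 22.1 in DMSO (0.10, -0.21 to 0.40). Over the Slc27a1 start the shared region was 23000 bp long and also held Nxnl1 and Tmem221. It had 143 ± 9.88 in TBT and 147 ± 16.3 in DMSO (-0.03, -0.18 to 0.11). Per called kb the order turned round at 4 starts: the means were 16.7 in TBT and 21.6 in DMSO for Slc27a4, 17.4 and 22.0 for Fabp5, 9.48 and 11.9 for Fabp3, and 13.1 and 12.5 for Slc27a1. None of these was called with the length as an offset, and no direction is read from these starts. Regions at the far ends of Slc27a4 and Slc27a1 reached over the neighbours Urm1, and Niban3 and Pgls, and were not called either.

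H3K27me3, a mark of chromatin repressed by Polycomb proteins, was found at these genes in some libraries, and no region at them was shared by the 8 libraries, so no test was made. The mark gave 21649 to 34013 islands in TBT and 17081 to 26890 in DMSO libraries, and DMSO libraries 1 and 2 had the fewest. Over or just before the Slc27a1 start an island was called in 4 TBT and 2 DMSO libraries (numbers 3 and 4), and over the Fabp3 start in 3 TBT and 2 DMSO libraries (again 3 and 4). For Slc27a1 the fold over input was 1.19 to 1.47 in TBT, and 1.19 and 1.30 in DMSO libraries 3 and 4. DMSO library 3 had a further island inside the gene, with a fold of 1.52. For Fabp3 the fold was 1.39 to 1.85 in TBT and 1.58 to 1.74 in DMSO. In DMSO library 4 the Slc27a1 island ended before the gene. Fabp5 had an island in 1 TBT library. Within Lpl 1 DMSO library had an island, and 1 DMSO library had one beside Fabp4. Of 2882 regions shared by the 8 libraries, edgeR called 0, with 176 at an unadjusted p under 0.05.

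In the authors' deposited table of differential H3K27me3 peaks, 2 lay at these genes, both with a lower concentration in TBT. At Slc27a4 the authors' deposited table gives a peak at chr2:29789800-29812999, which also reaches Coq4, with a log2 concentration of -0.22 in TBT and 6.32 in DMSO (FDR 5.8e-07; their fold, DMSO minus TBT, is 6.55). DMSO library 3 was the 1 of 4 with an island there, 23.2 kb long, with a fold over input of 1.12. In TBT, 1 library had a 1800 bp island within these bounds that lay more than 5 kb before the gene. Within Cd36 the authors' deposited table gives a peak at chr5:17853600-17859599 with 1.04 in TBT and 5.06 in DMSO (FDR 0.0074; DMSO minus TBT 4.02). TBT library 4 had a 1200 bp island there with a fold over input of 1.785, and DMSO library 2 a 5400 bp island with 1.42. Each fold is over the input of its own treatment. The 3 other Cd36 islands were in 1 DMSO library each.

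**Figure D5:**
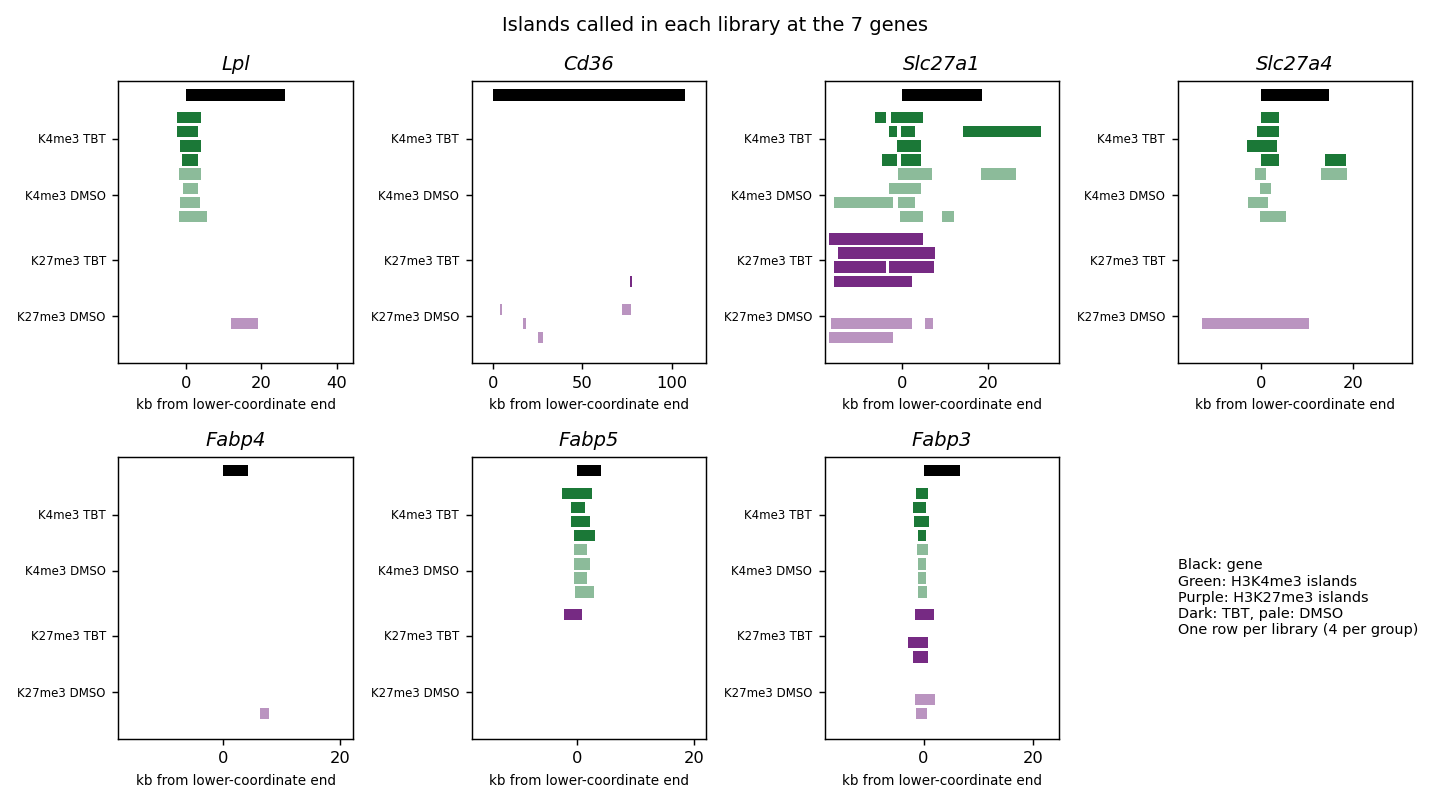
Islands of H3K4me3 (green) and H3K27me3 (purple) at the 7 genes, 1 row per library with TBT rows dark and above the pale DMSO rows, by distance in kb from the gene's lower-coordinate end; the black bar is the gene. H3K4me3 islands fill each of the 8 rows at the start of Lpl, Slc27a1, Slc27a4, Fabp5 and Fabp3 and none at Cd36 or Fabp4.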

How the data were processed

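RNA was measured in 24 libraries (6 per treatment) and histone marks in 16 ChIP-seq libraries, with 2 inputs. STAR, FastQC, SAMtools, DESeq2, SICER and DiffBind, and the builds GRCm38 and mm10, are named per the submitters' processing notes; the program and strand setting of counting are not given in the sources used here, while the library kit is strand-specific per the labels. The deposited RNA table holds the authors' raw read counts per gene. The deposited island files hold the authors' ChIP and input read counts, the fold (ratio) over input and the FDR of each island, called in each library with a 200 bp window, a 600 bp gap and FDR 0.001, per the file names. The authors' deposited table of differential peaks holds log2 concentrations, log2 folds and FDR values (q-values).

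Counts of 45317 genes were fitted with edgeR 4.0.16 in R 4.3.3 (TMM, filterByExpr, quasi-likelihood test, all 24 libraries, treatment as the 1 term, Benjamini-Hochberg adjustment over 12529 genes); 5 summary rows and 92 spike-ins were left out of library sizes. Unassigned reads without a gene were 20.9% to 24.3% of counts. Cd36 and Fabp3 failed the filter and come from the unfiltered fit, a choice made after seeing the data. Islands were merged from 1 bp of overlap, and regions found in all 8 libraries of a mark were tested with edgeR. DESeq2 1.42.0 served as an alternative. Scripts were tested on simulated data. Gene positions and promoters are RefSeq's for GRCm38.p6. Replicate libraries differed by more than sampling noise (chi-square per degree of freedom at least 1.35 in 60 pairs). All 7 genes are named in each comparison, and up to 4 called genes of each pathway list by size of change; genes with few or no counts, uncalled pathway genes and single cell type markers were named after their values were seen. The genes and lists were chosen with earlier results of these data known.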

Additional observations from a re-analysis of the deposited data

Results flagged for a closer look

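In 3 of 42 groups of libraries 1 value stood apart from the rest of its group by more than Dixon's 95% limit, which chance does in about 1 of 20 groups. For Slc27a4, 1 rosiglitazone library had 112.8 CPM, where the nearest had 97.1; rosiglitazone against DMSO was not called for this gene. For H3K4me3 over the Fabp5 start, 1 DMSO library had 63.5 reads per 1000000 reads in shared regions, where the nearest had 54.7. For H3K4me3 over the Lpl start, 1 DMSO library had 99.8, where the nearest had 92.4, and this highest DMSO value was still below the lowest TBT value of 107.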

How the results depend on the processing

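With library scaling by the spike-ins, 1 of 5 genes was called between TBT and AGN194204 and 1 in the sum contrast, against 2 each with TMM; the cause was not tested. Under that scaling 5 single values no longer passed: Lpl for TBT against AGN194204 (0.27, adjusted p = 0.16) and in the sum contrast (-0.15, 0.66), Slc27a4 for AGN194204 against DMSO (0.17, 0.24), and Cd36 for rosiglitazone against DMSO (0.058) and TBT against AGN194204 (0.069). It also shifted the genes called to 2426 higher and 172 lower for TBT against rosiglitazone (1908 and 1690 with TMM), 1162 and 184 for AGN194204 against rosiglitazone (1697 and 1400), 13 and 7 for TBT against AGN194204 (51 and 55), and 0 and 2 in the sum contrast (17 and 24). The count for AGN194204 against DMSO was 3 with spike-ins, against 4. Without the filter, and with DESeq2's own test, the counts were 5, 5 and 3 for TBT, AGN194204 and rosiglitazone against DMSO, 3 for TBT against AGN194204 and 5 for TBT against rosiglitazone, 1 more each. The other 347 single values stayed on their side of the threshold, and no called value changed sign, though some uncalled ones did, among them H3K4me3 at 3 starts per called length (-0.37 at Slc27a4, -0.35 at Fabp5 and -0.33 at Fabp3). Leaving out each ChIP library in turn left 0 regions called at these genes. The H3K27me3 alternatives gave no value for these genes, because no region at them was shared by 8 libraries.

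With the replicate number as a block, 4, 4 and 2 of 5 genes were called for TBT, AGN194204 and rosiglitazone against DMSO, 2 for TBT against AGN194204, 4 for TBT against rosiglitazone, 2 for AGN194204 against rosiglitazone, 2 in the sum contrast and 0 H3K4me3 regions, as without it. Whether RNA libraries with the same number are paired was not settled. Of 36 such RNA pairs, 18 had a correlation over 0.1, and 8 of 24 libraries were most like one of their own number. The median correlation was 0.10 for the same number and -0.03 for other numbers across treatments. Over all genes, rosiglitazone against DMSO gave 113 higher and 110 lower with the block, against 77 and 53 without it. For either mark 0 of 4 pairs passed 0.1. Depth limits Cd36 and Fabp3 most, with 0 to 22 counts per library.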
